A study of Mus musculus with 8 samples.

Results

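The genes described here encode the parts of the inflammasomes and of pyroptosis, the lytic cell death they set off. They are the 10 rows of the deposited table whose symbol is Nlrp3, Pycard, Casp1, Casp4, Gsdmd, Il18, Naip5, Nlrc4, Nlrp1b or Mefv, out of 48500 genes in the table, and all 10 were found. RNA had been measured in leukaemia stem cells of mice whose acute myeloid leukaemia was driven by HOXA9 and MEIS1. About 10000 bone marrow cells that carried GFP and c-Kit and lacked Gr-1 had been sorted for each library. The 8 libraries fall into 4 from Nynrin-/- leukaemias (Nynrin-KO, named KO1 to KO4) and 4 from Nynrin+/+ leukaemias (WT, named WT1 to WT4), and both groups carried the HOXA9 and MEIS1 drivers. No label states that each library is its own mouse, so every p measures the spread between these libraries only. The labels do not name the deleted part of Nynrin.

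An inflammasome is a cytosolic platform that assembles when a sensor protein meets a bacterial product or a sign of cell damage. The sensor recruits caspase-1, directly or through the adaptor ASC, and caspase-1 matures the cytokines interleukin 1 beta and interleukin 18 and cleaves gasdermin D, whose freed part forms pores in the plasma membrane. Mouse caspase-11, the product of Casp4, binds bacterial lipopolysaccharide and cleaves gasdermin D without a sensor platform. Macrophages and neutrophils use these genes in defence, and several of them are induced by interferon and NF-kB signals. TXNIP, named in the title of the series, has been described as a binding partner of NLRP3.

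The promoters of 9 of the 10 genes were matched in RefSeq (GRCm38.p6), with Gsdmd missing. Each window runs across a start annotated in RefSeq, with most of it upstream. For Naip5 and Il18 that start differs from the gene coordinates given below, and the whole window lies upstream of those. The windows were searched on both strands for 4 motifs, namely an interferon response element core (GAAA, any pair of bases, GAAA), a STAT site (TTCNNNGAA), a PU.1 core (GAGGAA) and the kappaB consensus. The kappaB consensus was found for Nlrp3, Casp4 and Naip5, and in 8.46% of all 32851 promoter windows. GAGGAA was found for Nlrp3, Pycard, Casp1 and Nlrp1b, and in 28.3% of all windows. A gene was counted if any of its windows matched, and Nlrp3, Casp4 and Nlrp1b have 2 windows each. The shares are per window, so the units differ. Neither other motif matched in any of the 9 genes' windows, against 3.44% of all windows for the interferon element and 8.30% for the STAT site. Shown 5′ to 3′ are the windows of 3 genes that passed the test below and hold the kappaB consensus, with Il18 beside them because its level differed most and its window holds none of the motifs. Capitals mark the kappaB matches. Casp4 holds 2 marked stretches, of which the first is made of overlapping matches and the second is a single match on the minus strand. The windows lie at chr9:5308599-5308898 on the plus strand (Casp4, the first of its pair of overlapping windows), chr11:59541319-59541618 on the plus strand (Nlrp3, the more upstream of its pair), chr13:100247287-100247586 on the minus strand (Naip5) and chr9:50554450-50554749 on the plus strand (Il18).
Casp4: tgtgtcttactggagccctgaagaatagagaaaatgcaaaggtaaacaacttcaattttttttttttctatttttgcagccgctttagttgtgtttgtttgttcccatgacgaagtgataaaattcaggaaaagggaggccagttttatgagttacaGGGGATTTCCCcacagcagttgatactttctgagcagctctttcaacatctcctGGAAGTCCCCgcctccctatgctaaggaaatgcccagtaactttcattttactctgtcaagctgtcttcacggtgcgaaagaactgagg
Nlrp3: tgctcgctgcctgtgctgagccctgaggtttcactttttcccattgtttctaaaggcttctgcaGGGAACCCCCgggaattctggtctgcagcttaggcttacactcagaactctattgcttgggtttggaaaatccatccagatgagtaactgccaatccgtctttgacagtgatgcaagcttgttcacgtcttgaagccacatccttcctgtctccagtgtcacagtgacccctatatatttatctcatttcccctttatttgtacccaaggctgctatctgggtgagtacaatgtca
Naip5: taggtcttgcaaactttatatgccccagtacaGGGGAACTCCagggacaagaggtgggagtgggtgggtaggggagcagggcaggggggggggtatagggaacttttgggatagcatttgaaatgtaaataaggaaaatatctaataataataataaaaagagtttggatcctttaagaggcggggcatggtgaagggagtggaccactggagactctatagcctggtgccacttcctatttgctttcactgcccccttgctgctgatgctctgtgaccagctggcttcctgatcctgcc
Il18: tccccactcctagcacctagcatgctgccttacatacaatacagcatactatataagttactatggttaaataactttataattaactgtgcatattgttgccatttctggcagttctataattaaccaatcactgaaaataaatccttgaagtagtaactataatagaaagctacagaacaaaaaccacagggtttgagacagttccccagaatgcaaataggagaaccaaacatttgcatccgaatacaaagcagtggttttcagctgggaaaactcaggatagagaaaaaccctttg
A match describes these letters only.

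The libraries differed in ways that touch the results below. Recovered depth was 1826949 to 28700558 reads in Nynrin-KO and 1962512 to 33087385 reads in WT, with KO3 and WT3 the shallowest. Nynrin itself was at 0.169, 0.0982, 0.437 and 0.121 FPKM (fragments normalised to transcript length and library depth) in KO1 to KO4 and at 0.008, 0.226, 0.271 and 0.286 FPKM in WT1 to WT4, so the groups overlap and the labels are not checked by it. Xist was at most 0.366 FPKM in KO2, KO3 and KO4, against 15.2 to 26.5 FPKM in WT, while KO1 held both Xist (12.7 FPKM) and the Y-linked Ddx3y (2.18 FPKM). Sex therefore cannot be told apart from genotype here. Of the markers of the labelled cells, Kit was at 2.92 to 4.91 FPKM in Nynrin-KO and 2.63 to 6.40 FPKM in WT, and Cd34 was at 5.54 to 7.30 FPKM in Nynrin-KO and 55.7 to 151 FPKM in WT. Hoxa9 was at 1.70 to 6.38 FPKM in Nynrin-KO and 0.569 to 1.90 FPKM in WT, and Meis1 was at 2.03 to 5.13 FPKM in Nynrin-KO and 0.664 to 0.898 FPKM in WT. Ly6g, which encodes a Gr-1 antigen that the sort selected against, was at 93.5 to 264 FPKM in Nynrin-KO and 0.707 to 49.3 FPKM in WT.

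Interferon-stimulated genes and markers of several other cell types moved with the genotype. The sums of monocyte and macrophage genes and of B cell genes overlapped between the groups. Of all genes tested below, 14.0% rose and 13.8% fell. The 17 listed mature neutrophil genes took 9.38% to 21.6% of the reads in Nynrin-KO and 0.293% to 8.41% in WT, and their summed level was 129381 to 294035 FPKM in Nynrin-KO and 3316 to 109398 FPKM in WT. Each of the 17 was above 0 in all 8 libraries, and 10 of the 17 rose by limma. The 22 interferon-stimulated genes summed to 1089 to 5260 FPKM in Nynrin-KO and 65.6 to 486 FPKM in WT, with 21 that rose. The 18 monocyte and macrophage genes summed to 548 to 1670 FPKM in Nynrin-KO and 890 to 1763 FPKM in WT, with 7 that rose and 1 that fell, and Mrc1 and Fcgr1 were listed at 0 in WT3. Mast cell and basophil genes summed to 48.4 to 118 FPKM in Nynrin-KO and 10.3 to 14.3 FPKM in WT (3 of 6 tested rose and 1 fell). Erythroid genes summed to 8.97 to 49.3 FPKM in Nynrin-KO and 0.311 to 2.57 FPKM in WT (all 3 tested rose, and Hbb-bs was listed at 0 in WT1 to WT3). B cell genes summed to 20.8 to 37.8 FPKM in Nynrin-KO and 20.3 to 27.6 FPKM in WT (1 of 3 tested rose). T and NK cell genes summed to 99.2 to 226 FPKM in Nynrin-KO and 0.877 to 10.9 FPKM in WT (1 tested, Nkg7, which rose). Most of that Nynrin-KO sum was Nkg7 alone, at 94.5 to 223 FPKM in Nynrin-KO and 0.578 to 9.14 FPKM in WT. Cd3e, Cd3d, Cd3g, Cd8a and Ncr1 overlapped between the groups, while Cd4 and Klrb1c were higher in every Nynrin-KO library. Nkg7 was below 1 FPKM in WT1 and WT3, so its entry into the test below depended on the Nynrin-KO libraries. Other genes listed at 0 in these 4 lists included Prss34 in KO2 and WT2, Klf1 in KO2 and KO3, Epor in KO3 and WT3, Alas2 in KO3, Hbb-bt and Hba-a2 in WT1, WT3 and WT4, and Hba-a1, Cpa3, Ms4a2, Cd3d and Cd4 in WT3, Cd3g in WT2 and Cd8a in WT1. The 3 erythroid genes tested, Hbb-bs, Hba-a1 and Car2, reached the 1 FPKM of the filter below in Nynrin-KO libraries alone. They entered the test only through the group where they were high, and so did Ms4a2, Mrc1 and Cd79a. The tests of these genes support nothing further. In bulk RNA fewer cells of a type and less RNA per cell cannot be told apart.

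Of the 10 genes 9 passed the filter on low values, set at 1 FPKM or more in 4 or more libraries, and 5 of these rose in Nynrin-KO at an adjusted p under 0.05. The 5 are Il18, Casp4, Naip5, Gsdmd and Nlrp3. Il18 passed the filter only with the Nynrin-KO libraries, where it was high, so its call supports nothing further. None fell by limma, where 1, Pycard, had an unadjusted p under 0.05, and voom on recovered reads also gave none that fell. Over all 12524 genes tested 27.9% passed: 14.0% rose and 13.8% fell. The median log2 change of the 9 genes was 0.77, against -0.03 for all genes tested, and 8 of the 9 had a positive change. The Nynrin-KO and WT libraries did not overlap for 5 genes, all higher in Nynrin-KO (Casp1, Casp4, Gsdmd, Il18 and Naip5), where 16.7% of all genes tested were higher without overlap and 15.0% were lower. The 10 genes were chosen with earlier results of these data known, so the shares beside them are a description and not a test. Fold changes below are differences of log2(FPKM + 1), with standard errors and adjusted p from limma with Benjamini-Hochberg adjustment over all genes tested.

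**Figure D1:**
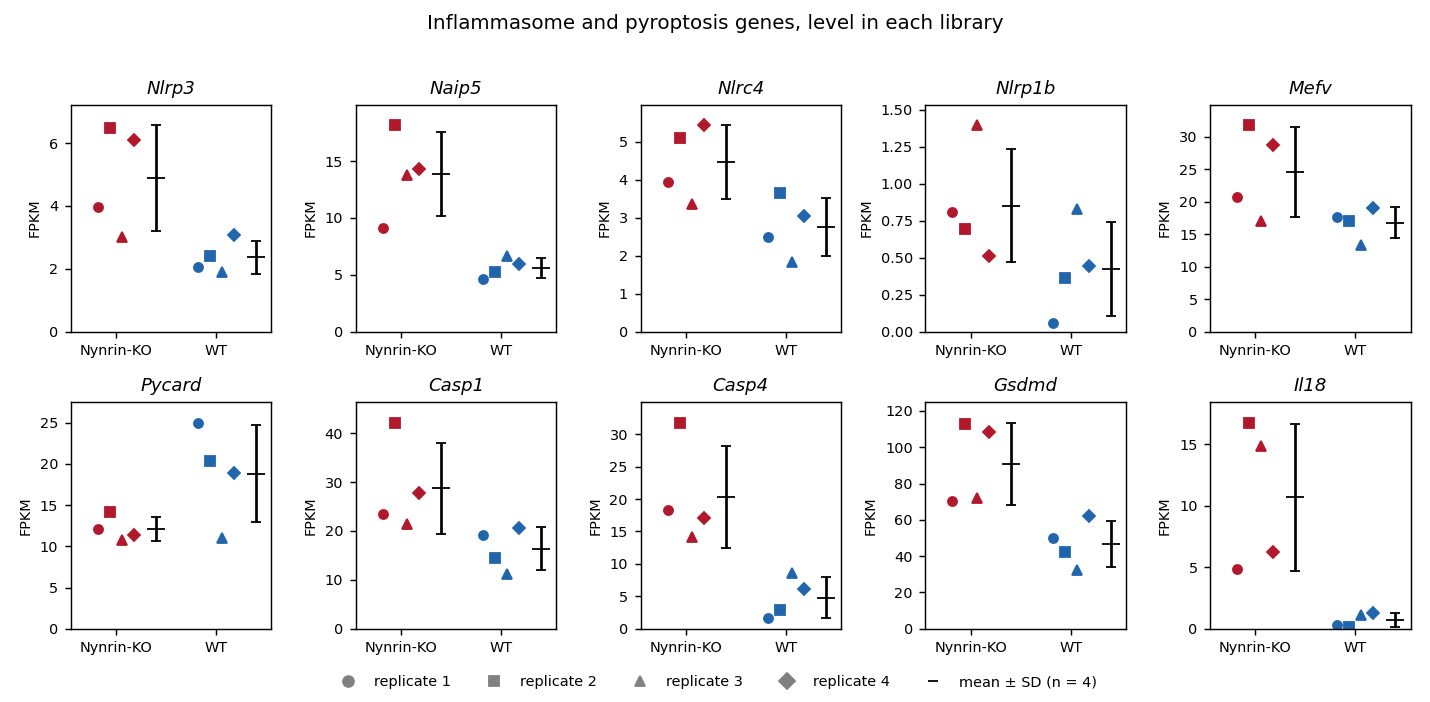
Level in FPKM of each of the 10 genes in every library, Nynrin-KO left of WT, with 1 symbol per replicate number and the mean ± SD (n = 4) in black; each panel has its own axis from 0. All 4 Nynrin-KO libraries lie above all 4 WT libraries for Naip5, Casp1, Casp4, Gsdmd and Il18, and Pycard is the gene with a lower mean in Nynrin-KO, 12.1 against 18.8 FPKM.

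Among the sensors, Nlrp3 and Naip5 rose. Nlrp3 (mm10 chromosome 11, 59541568 to 59566956), which encodes the sensor of membrane damage and ion loss, stood at 3.96, 6.48, 2.99 and 6.10 FPKM in KO1 to KO4, against 2.07, 2.39, 1.90 and 3.07 FPKM in WT1 to WT4. KO1, KO2 and KO4 were above every WT library, while KO3 lay just below WT4, so the groups overlap by a single library. The log2 change was 0.77 (SE 0.23, adjusted p = 0.0368), with means of 4.88 ± 1.68 and 2.36 ± 0.52 FPKM in Nynrin-KO and WT (SD, n = 4 each). The call rests on single libraries, since the limma adjusted p was 0.0875, 0.0712 and 0.0689 without WT1, WT2 or WT3 and 0.0547, 0.102 and 0.103 without KO1, KO2 or KO4. KO3 and WT3 gave 22 and 15 reads of Nlrp3, and 0.0123 was the adjusted p without KO3.

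Naip5 (chromosome 13, 100211739 to 100246323), which encodes the cytosolic receptor for bacterial flagellin, stood at 9.12, 18.1, 13.8 and 14.3 FPKM in KO1 to KO4, against 4.59, 5.24, 6.66 and 5.91 FPKM in WT1 to WT4. The 4 WT libraries lie close together and KO1, the lowest of the Nynrin-KO libraries, is above all of them. Naip5 had a log2 change of 1.14 (SE 0.22, adjusted p = 0.00595), and the adjusted p stayed between 0.00633 and 0.0194 with any 1 library left out. Naip5 has close copies beside it on the chromosome: 36.9% of the 50-base windows of its transcript also occur in other genes, most of them in Naip6. No source used here says how the reads of such copies were assigned, so the level of Naip5 alone is uncertain.

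Nlrc4, Mefv and Nlrp1b did not pass. Nlrc4 (chromosome 17, 74425438 to 74459142) encodes the partner through which the NAIP receptors signal. It stood at 3.93, 5.10, 3.36 and 5.43 FPKM in KO1 to KO4, against 2.50, 3.65, 1.83 and 3.03 FPKM in WT1 to WT4, and KO3 lay below WT2 (log2 change 0.55, SE 0.21, adjusted p = 0.0810; limma gave 0.0461 without KO3). Mefv (chromosome 16, 3707218 to 3718097) encodes pyrin, a sensor protein mutated in familial Mediterranean fever in humans. It stood at 20.8, 31.7, 17.0 and 28.7 FPKM in KO1 to KO4, against 17.6, 17.1, 13.3 and 19.0 FPKM in WT1 to WT4. KO1, KO2 and KO4 lay above the WT libraries, and KO3 lay below WT1, WT2 and WT4 (log2 change 0.50, SE 0.23, adjusted p = 0.136; limma gave 0.0457 without KO3).

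Nlrp1b (chromosome 11, 71153102 to 71230733), whose product is cleaved by anthrax lethal factor in mice, was the gene below the filter. It stood at 0.806, 0.693, 1.39 and 0.508 FPKM in KO1 to KO4, against 0.056, 0.360, 0.826 and 0.443 FPKM in WT1 to WT4. The reads behind these levels numbered 33, 69, 11 and 63 in Nynrin-KO and 8, 11, 7 and 33 in WT. The highest value of each group is that of its shallowest library, and the groups overlap. An exact two-sided permutation test over the 70 arrangements gave p = 0.143 for a log2 difference of 0.39 (n = 4 each), where the smallest possible p is 0.0286. Of the 50-base windows of the Nlrp1b transcript 2.08% occur in other genes, most of them in the neighbouring Nlrp1a.

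The adaptor was the one gene with a negative change. Pycard (chromosome 7, 127989708 to 127993867) encodes ASC, which bridges sensors with a pyrin domain to caspase-1. It stood at 12.2, 14.1, 10.8 and 11.4 FPKM in KO1 to KO4, against 25.0, 20.4, 10.996 and 18.9 FPKM in WT1 to WT4. The Nynrin-KO libraries lay close together, and WT1, WT2 and WT4 were above all of them, while WT3 was within their range with 82 reads. The log2 change was -0.55 (SE 0.24, adjusted p = 0.123), which did not pass, and the limma adjusted p without WT3 was 0.0164 (log2 change -0.77). Exons of Pycard overlap those of Gm45205 on the opposite strand, and 11.8% of its 50-base windows occur in other genes, so reads of both cannot be told apart if strand was not used.

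Set against Casp1 or Nlrp3 within each library, Pycard gave ratios that did not overlap between the groups. The ratio of Pycard to Casp1, both per length, was 0.518, 0.335, 0.504 and 0.409 in KO1 to KO4, against 1.30, 1.42, 0.978 and 0.915 in WT1 to WT4. Every Nynrin-KO library lay below every WT library, WT3 included, and a ratio within a library does not change with its scaling. The ratio of Pycard to Nlrp3 was 3.07, 2.18, 3.61 and 1.86 in KO1 to KO4, against 12.1, 8.54, 5.78 and 6.15 in WT1 to WT4, again without overlap. Both gave an exact two-sided permutation p = 0.0286, the smallest possible with 4 against 4, and an adjusted p = 0.0571 over the 4 ratios computed, which does not pass. The ratio of Gsdmd to Casp1 was 2.67 to 3.90 in Nynrin-KO and 2.60 to 3.01 in WT (exact permutation p = 0.229, adjusted p = 0.229), and the ratio of Casp4 to Casp1 was 0.615 to 0.783 in Nynrin-KO and 0.0867 to 0.763 in WT (exact permutation p = 0.114, adjusted p = 0.152). These ratios were chosen after the levels were seen.

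Of the inflammatory caspases, Casp4 rose and Casp1 did not pass. Casp4 (chromosome 9, 5308828 to 5336783) stood at 18.4, 31.8, 14.1 and 17.1 FPKM in KO1 to KO4, against 1.67, 2.82, 8.58 and 6.13 FPKM in WT1 to WT4. WT3 and WT4 were the higher of the WT libraries, yet both lay below KO3, the lowest of the Nynrin-KO libraries. The log2 change was 1.99 (SE 0.41, adjusted p = 0.00896), the means were 20.3 ± 7.85 and 4.80 ± 3.15 FPKM in Nynrin-KO and WT (SD, n = 4 each), and it ranked 256 by size of rise among the genes tested. The adjusted p stayed between 0.00559 and 0.0261 with any 1 library left out.

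Casp1 (chromosome 9, 5298517 to 5307265) lies 1563 bases from Casp4 and is transcribed in the same direction. It stood at 23.5, 42.2, 21.4 and 27.8 FPKM in KO1 to KO4, against 19.3, 14.4, 11.2 and 20.6 FPKM in WT1 to WT4. The groups did not overlap, but KO3 and WT4 were close to each other. The log2 change was 0.76 (SE 0.27, 95% interval 0.16 to 1.36, adjusted p = 0.0612), and limma gave an adjusted p of 0.0431 without KO3, from 59 reads. No 50-base window of either caspase transcript occurs in another gene. The next gene along, Casp12, named for its place, was at 0.279 to 1.45 FPKM in Nynrin-KO and 0.0456 to 0.769 FPKM in WT and was below the filter.

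The executor and the cytokine both rose. Gsdmd (chromosome 15, 75862327 to 75867408) encodes the pore-forming gasdermin D and was the most abundant of the 10 per length in both groups. It stood at 70.6, 113, 71.8 and 108 FPKM in KO1 to KO4, against 50.01, 42.3, 32.4 and 62.2 FPKM in WT1 to WT4. All Nynrin-KO libraries were above WT4, the highest WT library. Gsdmd had a log2 change of 0.95 (SE 0.26, adjusted p = 0.0257), with means of 90.8 ± 22.8 and 46.7 ± 12.6 FPKM in Nynrin-KO and WT (SD, n = 4 each). The limma adjusted p was 0.0651 and 0.0506 without WT2 or WT3 and 0.0724 and 0.0679 without KO2 or KO4.

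Il18 (chromosome 9, 50554827 to 50581840) encodes interleukin 18, a cytokine stored as a precursor that induces interferon gamma in lymphocytes. It stood at 4.89, 16.8, 14.8 and 6.26 FPKM in KO1 to KO4, against 0.273, 0.160, 1.15 and 1.31 FPKM in WT1 to WT4. The reads behind these levels numbered 41, 342, 24 and 159 in Nynrin-KO and 8, 1, 2 and 20 in WT. Even the lowest Nynrin-KO library, KO1, was above the highest WT library, but the WT levels rest on few reads, and WT2 and WT3 had fewer than 3. Il18 reached 1 FPKM in 2 of the 4 WT libraries, so it passed the filter only with the group where it was high. The log2 change was 2.67 (SE 0.41, adjusted p = 0.00290), and the ratio of the group means was 14.8 (10.7 ± 5.98 and 0.724 ± 0.591 FPKM in Nynrin-KO and WT, SD, n = 4 each). It ranked 105 by size of rise among the 12524 genes tested. The size depends on the pseudocount at such levels, with a log2 change of 3.88 at a pseudocount of 0.1 and 3.70 by voom. With any 1 library left out its adjusted p lay between 0.00434 and 0.0106. Because the entry of Il18 into the test depended on the group where it was high, these values describe it and support nothing further.

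Per length, the order of the levels differed between the groups. In Nynrin-KO the means ran from Gsdmd (90.8 FPKM) through Casp1 (28.7), Mefv (24.6), Casp4 (20.3), Naip5 (13.8), Pycard (12.1), Il18 (10.7), Nlrp3 (4.88) and Nlrc4 (4.45) to Nlrp1b (0.850 FPKM). In WT they ran from Gsdmd (46.7 FPKM) through Pycard (18.8), Mefv (16.8), Casp1 (16.4), Naip5 (5.60), Casp4 (4.80), Nlrc4 (2.75), Nlrp3 (2.36) and Il18 (0.724) to Nlrp1b (0.421 FPKM). Neighbours in the order did not overlap between Gsdmd and Casp1 and between Nlrc4 and Nlrp1b in Nynrin-KO, and between Gsdmd and Pycard, Casp1 and Naip5, and Nlrp3 and Il18 in WT, and all other neighbours overlapped. The level of Pycard is per 3800 bases, its longest annotated transcript, while its other annotated transcript has 493 bases and would give a level 7.71 times higher, so its place in the order is not firm. Casp4 is per 1901 bases, and its longest coding transcript of 1435 bases would give a level 1.32 times higher.

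Single libraries were often the highest or lowest of their group. KO2 had the highest level within Nynrin-KO for 8 of the 10 genes and KO3 the lowest for 6, while WT4 had the highest level within WT for 5 and WT3 the lowest for 6. WT3 was also the highest WT library for Casp4, Naip5 and Nlrp1b, and KO1 was the lowest Nynrin-KO library for Gsdmd, Il18 and Naip5. KO2 is also the Nynrin-KO library with the most interferon-stimulated RNA, at a summed 5260 FPKM against 1089, 2248 and 1116 FPKM in KO1, KO3 and KO4, and WT4 is that of the WT group, at 486 FPKM against 65.6, 90.8 and 114 FPKM in WT1, WT2 and WT3. KO3 and WT3 are the shallowest libraries and the ones with the most Gm10800, a gene model resembling satellite repeats, which took 8.38% and 9.39% of their reads against 0.221% to 4.62% in the other 6 libraries. Summed over the 10 genes the level was 168, 280, 171 and 226 FPKM in KO1 to KO4, against 123, 109, 88.9 and 141 FPKM in WT1 to WT4, so the groups do not overlap in the sum.

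**Figure D2:**
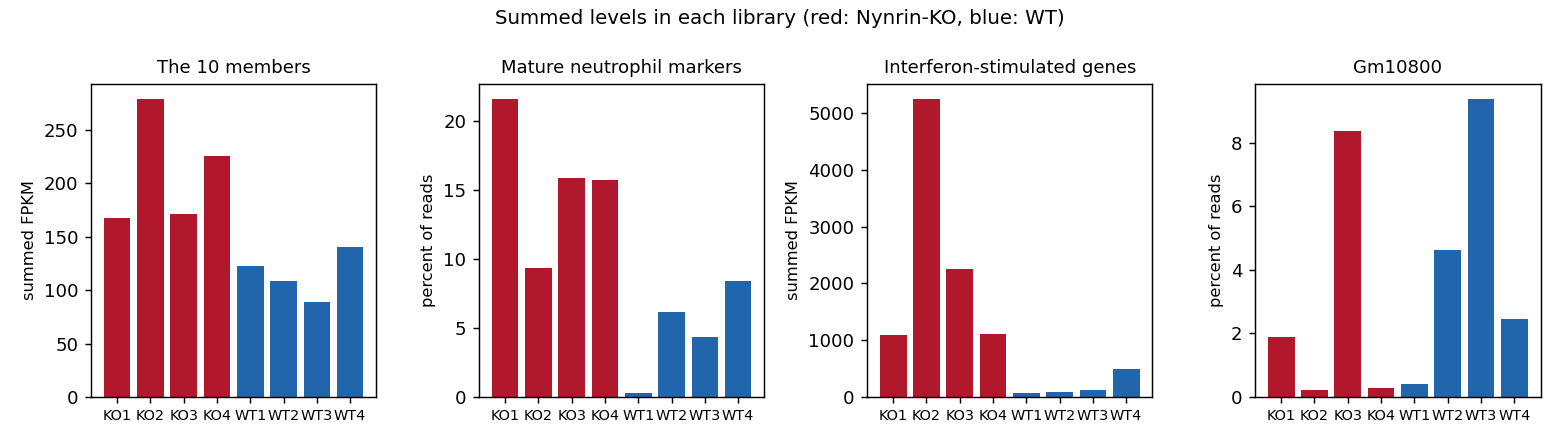
Bars show, for each library with Nynrin-KO (red) left of WT (blue), the summed FPKM of the 10 genes, the percent of reads from 17 mature neutrophil genes, the summed FPKM of 22 interferon-stimulated genes and the percent of reads from Gm10800. KO2 is highest for the 10 genes and the interferon-stimulated genes, KO1 is highest for the neutrophil genes at 21.6%, and WT1 is lowest for them at 0.293%.

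The neutrophil share is given beside the levels here. It was higher in every Nynrin-KO library than in any WT library. The covariate fit below therefore cannot tell its part in the levels from that of genotype. WT1, with 0.293% of its reads from mature neutrophil genes, had 50.01 FPKM of Gsdmd, 19.3 of Casp1, 17.6 of Mefv and 2.07 FPKM of Nlrp3, each within the range of WT2 to WT4, whose shares were 4.35% to 8.41%. It was also the lowest WT library for Casp4 (1.67 FPKM), Naip5 (4.59 FPKM) and Nlrp1b (0.056 FPKM), and the highest for Pycard (25.0 FPKM). KO1 had the largest share, 21.6%, and the lowest level among Nynrin-KO libraries of Gsdmd, Il18 and Naip5. With the mean level of the neutrophil genes as a covariate none of the 9 genes passed by limma, 4 had an unadjusted p under 0.05, and the log2 changes of Il18, Casp4, Naip5, Gsdmd and Nlrp3 were 2.59, 1.23, 1.09, 1.02 and 0.65. With the mean level of the interferon-stimulated genes as a covariate none passed and none had an unadjusted p under 0.05, and those changes were 0.93, 0.51, 0.51, 0.43 and 0.30. Both lists summed higher in every Nynrin-KO library than in any WT library. Over all genes the covariates left 8 and 0 calls, with 2327 and 605 genes at an unadjusted p under 0.05.

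The number of genes that passed depended on the libraries used. Without WT1 and KO1, Casp4, Il18 and Naip5 rose, where 6.72% of all genes tested did. In the 5 libraries high in Gm10800 (KO1 and KO3 against WT2, WT3 and WT4) Il18 alone rose (log2 change 2.43, adjusted p = 0.0427), where 1.9% of all genes tested did, and Casp4 and Naip5 had log2 changes of 1.42 and 0.82 (adjusted p = 0.0862 and 0.103). Without the shallow WT3 and KO3, the same 5 genes rose as over all libraries and Pycard fell (log2 change -0.72, adjusted p = 0.0217). There 1809 of the 10747 genes tested rose and 1967 fell.

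**Figure D3:**
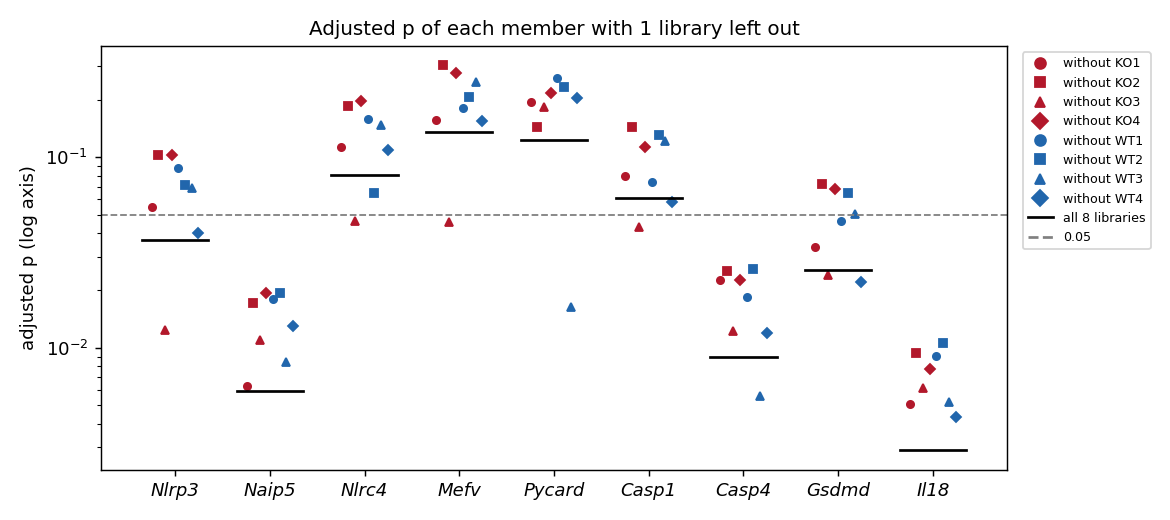
Adjusted p from limma (log axis) of each of the 9 genes tested, with all 8 libraries (black line) and with each library left out in turn (red, a Nynrin-KO library; blue, a WT library); the dashed line marks 0.05. Il18, Casp4 and Naip5 stay below 0.05 throughout, with a highest value of 0.0261, while the points of Nlrp3 and Gsdmd fall on both sides of the line.

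The other genes of the pathway were taken from 4 lists with 49 genes, of which 36 were tested. Of these 16, Nlrp12 included, rose and 2 fell, and their median log2 change was 0.75, against the 14.0% that rose, 13.8% that fell and a median of -0.03 over all genes. The lists were chosen with earlier results of these data known, so this comparison is a description and not a test. Of 11 other sensors and partners 7 were tested and 4 rose. Nod1, a receptor for bacterial peptidoglycan, stood at 10.1, 14.5, 5.33 and 9.99 FPKM in KO1 to KO4, against 1.38, 1.47, 0.590 and 3.47 FPKM in WT1 to WT4 (log2 change 2.04, SE 0.35, adjusted p = 0.00437). Every Nynrin-KO library was above every WT library. Naip2, which recognises the bacterial secretion rod, and Naip6, a second flagellin receptor, rose by 0.86 and 0.80 on the log2 scale (adjusted p = 0.0120 and 0.0215). The doubt about shared reads extends to Naip6, which shares windows with Naip5. Shared windows were not searched for the transcript of Naip2. Nlrp12, an NLR with reported inhibitory roles, is counted among these 4 but reached 1 FPKM in Nynrin-KO libraries alone, so it entered the test only through the group where it was high. It averaged 2.58 ± 1.05 FPKM in Nynrin-KO and 0.396 ± 0.381 FPKM in WT (SD, n = 4 each), and its call supports nothing further. Other genes that rose also fell short of the filter by their WT libraries alone. In WT, Il18bp reached 1 FPKM in 1 library, Il1b, Gbp2 and Zbp1 in 2, and Nod1, Il1rn, Il1r2 and Tlr4 in 3. Their entry into the test therefore depended on the group where they were high. The cytosolic DNA sensor Aim2 was at 7.39 ± 3.02 FPKM in Nynrin-KO and 6.90 ± 1.31 FPKM in WT (log2 change 0.04, adjusted p = 0.926), and Nek7, the kinase that binds NLRP3, at 11.3 ± 1.69 FPKM in Nynrin-KO and 10.7 ± 0.70 FPKM in WT (log2 change 0.06, 95% interval -0.29 to 0.42, adjusted p = 0.795). Nlrp1a, the copy beside Nlrp1b, had a log2 change of -0.05 (adjusted p = 0.905).

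The interleukin 1 family genes that were tested had a median log2 change of 2.17, with agonists and antagonists among the genes that rose. Entry of Il1b, Il1rn, Il1r2, Il18bp and Il18r1 into the test depended on the group where they were high. The median is therefore a description only. Of 11 listed genes 8 were tested and 6 rose. Il1b, the other cytokine matured by caspase-1, stood at 24.7, 26.7, 7.27 and 29.8 FPKM in KO1 to KO4, against 0.892, 0.625, 3.01 and 3.17 FPKM in WT1 to WT4 (log2 change 2.95, SE 0.48, adjusted p = 0.00355). KO3 was the lowest Nynrin-KO library and still above every WT library. Il1rn, the receptor antagonist, and Il1r2, the decoy receptor, rose by 2.79 and 3.05 on the log2 scale (adjusted p = 0.00217 and 0.00375). Il18bp, which encodes the protein that neutralises interleukin 18, stood at 10.6, 7.52, 8.01 and 5.21 FPKM in KO1 to KO4, against 0.442, 1.09, 0.393 and 0.894 FPKM in WT1 to WT4 (log2 change 2.36, SE 0.23, adjusted p = 0.00105). KO1, the Nynrin-KO library lowest in Il18, was the highest in Il18bp. Il18rap and Il1rap, signalling chains of the interleukin 18 and interleukin 1 receptors, rose by 1.99 and 0.67 (adjusted p = 0.00894 and 0.0202). Il18r1, the ligand-binding chain for interleukin 18, had a log2 change of 0.98 (adjusted p = 0.0778), and the inhibitory receptor Sigirr one of -0.34 (adjusted p = 0.245).

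**Figure D4:**
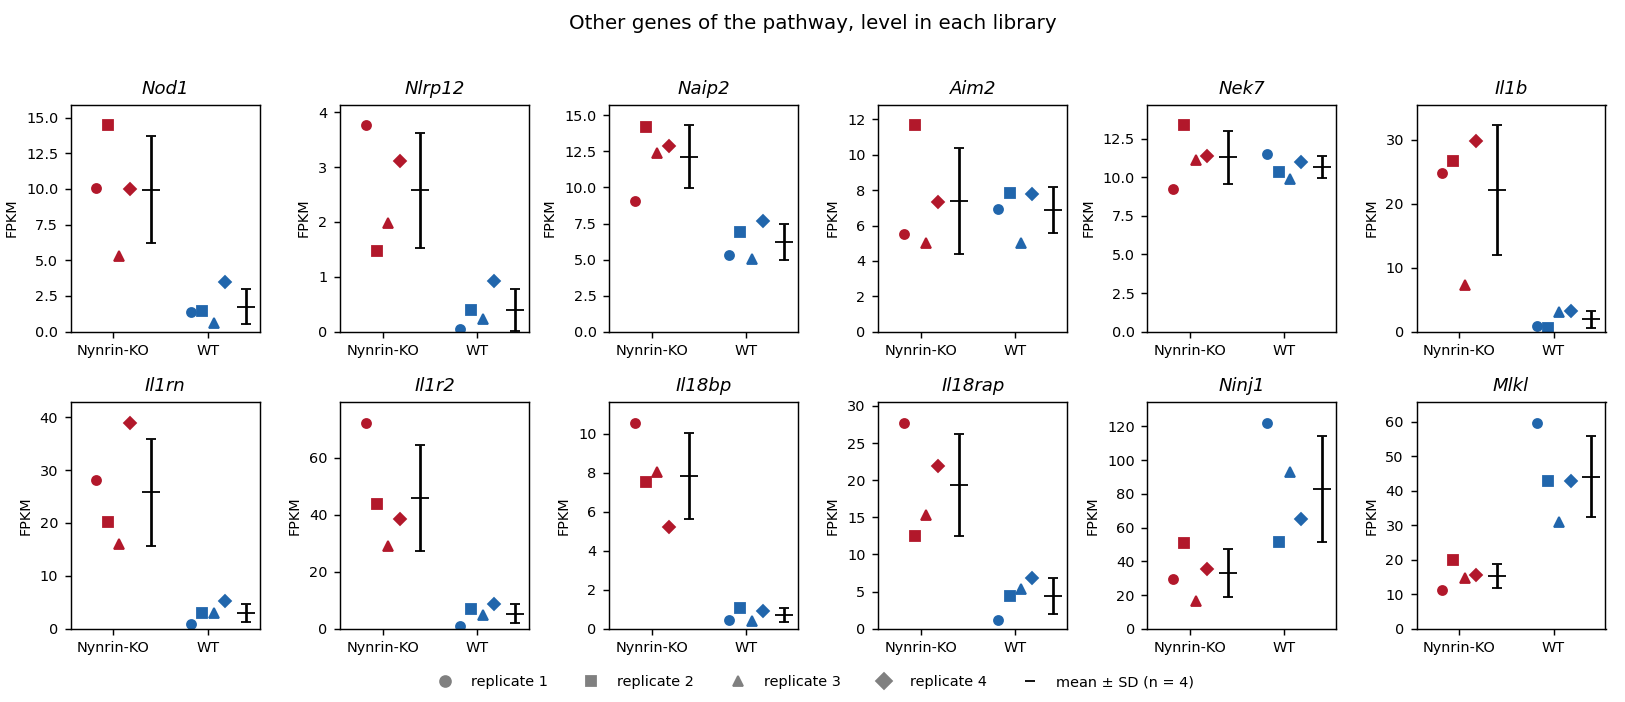
Level in FPKM in every library of 12 other genes of the pathway, Nynrin-KO left of WT, with 1 symbol per replicate number and the mean ± SD (n = 4) in black; each panel has its own axis from 0. Nod1, Nlrp12, Naip2 and the 5 interleukin 1 family genes lie higher in all Nynrin-KO libraries, Ninj1 and Mlkl lower, and Aim2 and Nek7 overlap.

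Of 9 other caspases, gasdermins and ninjurins 4 were tested, of which 1 fell and none rose by limma, where 1 was higher at an unadjusted p under 0.05. Ninj1, whose product ruptures the plasma membrane after pore formation, stood at 29.6, 51.1, 16.6 and 35.6 FPKM in KO1 to KO4, against 122, 51.6, 93.0 and 65.2 FPKM in WT1 to WT4 (log2 change -1.32, SE 0.37, adjusted p = 0.0282). KO2 and WT2 were nearly level. Casp8, an initiator caspase of apoptosis that can also cleave gasdermin D, had a log2 change of 0.37 (adjusted p = 0.293), and Gsdme, another pore-forming gasdermin, one of 0.24 (adjusted p = 0.329). Casp12, Gsdma, Gsdmc, Gsdmc2 and Ninj2 were below the filter.

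Of 18 regulators of assembly and linked death pathways 17 were tested, 6 rose and 1 fell. Tlr4, the receptor for lipopolysaccharide that primes Nlrp3, stood at 3.80, 6.25, 3.62 and 6.03 FPKM in KO1 to KO4, against 0.371, 1.25, 1.4998 and 2.21 FPKM in WT1 to WT4 (log2 change 1.38, SE 0.29, adjusted p = 0.00868). All Nynrin-KO libraries were above all WT libraries. Its partner Cd14 and its adaptor Ticam1 had log2 changes of 0.99 and 0.43 that did not pass (adjusted p = 0.0746 and 0.105). Zbp1, a nucleic acid sensor that is also on the interferon list, rose by 2.91, and Gbp2 and Gm12250, interferon-inducible GTPases, rose by 2.69 and 2.01 (adjusted p = 0.00606, 0.00492 and 0.0131). Trem1, a receptor that amplifies inflammation in neutrophils and monocytes, and the adaptor Card9 rose by 1.89 and 0.68 (adjusted p = 0.0119 and 0.0172). Mlkl, the executor of necroptosis, stood at 11.4, 19.9, 14.8 and 15.6 FPKM in KO1 to KO4, against 59.8, 42.9, 31.0 and 42.7 FPKM in WT1 to WT4, and fell by 1.45 on the log2 scale (SE 0.24, adjusted p = 0.00382).

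Txnip stood at 80.4, 194, 96.8 and 148 FPKM in KO1 to KO4, against 82.5, 58.1, 75.3 and 82.3 FPKM in WT1 to WT4 (log2 change 0.72, SE 0.29, adjusted p = 0.0966). KO2, the highest Nynrin-KO library for Txnip, is also the highest for Nlrp3, and KO4 is second for both. KO1 lay above the WT range for Nlrp3 and within it for Txnip, while KO3 lay within the WT range for Nlrp3 and above it for Txnip.

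**Figure D5:**
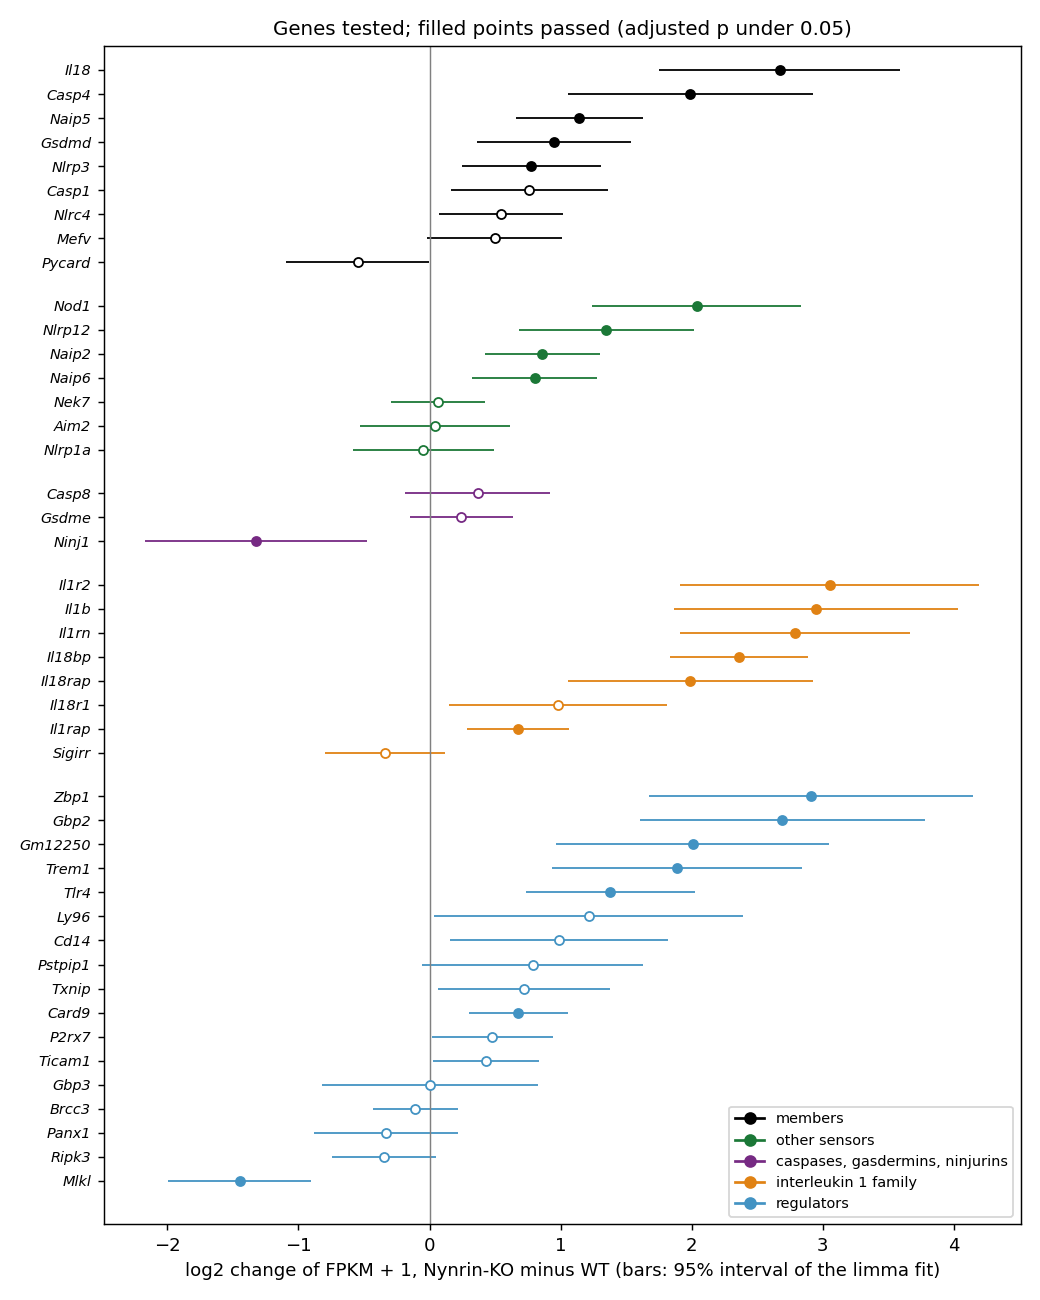
Difference of log2(FPKM + 1), Nynrin-KO minus WT, with its 95% interval from limma, for the 9 genes tested of the 10 (black) and for other pathway genes tested, by list; filled points passed an adjusted p of 0.05. Il18 and Casp4 lead the 9 genes at 2.67 and 1.99, Il1r2 leads the other lists at 3.05, and Ninj1 and Mlkl are the filled points left of 0.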

How the data were processed

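RNA had been measured in 4 Nynrin-KO and 4 WT libraries made with the Smart-Seq V4 kit, per the labels' protocols. The authors deposited 1 table of FPKM values for 48500 genes. The unit was read from the values, because values multiplied by the longest GENCODE M21 transcript gave nearly equal column sums. Bowtie 0.12.9, Cufflinks 2.1.1, HTSeq and mm10 are named in the submitters' processing notes, with no role given; the counting rule and strand were not stated. Of the gene identifiers 99.6% were found in GENCODE M21 (GRCm38), and coordinates are counted from 1.

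Read numbers were recovered by dividing by 1 step per library, which gave whole reads within 0.1 read for 99.4% to 99.5% of the values checked. They cover counting error only, since copies made by PCR are not independent molecules. Two-sided tests used limma 3.58.1 under R 4.3.3, with trend and robust estimation, on log2(FPKM + 1) of genes that reached 1 FPKM in 4 or more libraries, and Benjamini-Hochberg adjustment at 0.05. Ratios and Nlrp1b were tested by exact permutation (scipy 1.17.1). The fit was tested on simulated data. Named were the 10 genes, every called gene of the pathway lists and up to 3 more per list, with Txnip, Il1b, Aim2 and Nek7. Some results that this rule covers are not reported here. The members, lists and alternatives were chosen with earlier results of these data known. Alternatives covered pseudocount, filter, scaling, limma's options, voom on recovered reads, covariates, blocks, thresholds and libraries left out.

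The highest correlation of log2 values between any pair of libraries was 0.9691, so none was deposited again under another name.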

Additional observations from a re-analysis of the deposited data

How the results depend on the processing

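Over 23 alternatives no log2 change of the 9 genes tested turned its direction. Il18 passed in 21 of them, Casp4 and Naip5 in 20 each, Gsdmd in 14 and Nlrp3 in 10, while Casp1 passed in 4 and Nlrc4, Mefv and Pycard in 3 each. For Il18 the count carries the limit of the filter given above. The number of the 10 genes that rose, 5 over all libraries, was 3 without the filter on low values, 8 with array quality weights, 3 at an adjusted p under 0.01, 3 without WT1 and KO1, 1 in the 5 libraries high in Gm10800, and 0 with either covariate. It was 3 to 8 with each library left out, where 1020 to 1875 of all genes tested rose. Over all genes tested, 790 of 48500 rose without the filter, and 2472 rose and 2448 fell of 12524 with array quality weights. Of the 10 genes, the number that fell was 1 with array quality weights and 1 without WT3 and KO3, and 0 to 1 with each library left out.

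Of the other pathway genes 16 rose, and this was 0 with either covariate, 3 in the 5 libraries high in Gm10800 and 9 at an adjusted p under 0.01. It was 12 to 17 with each library left out. At an unadjusted p under 0.05, 12 other pathway genes were higher and 1 lower by limma with the neutrophil covariate, and 2 were higher and 1 lower with the interferon covariate. The 2 that fell were 1 without the filter, without WT1 and KO1, without WT3 and KO3 and at an adjusted p under 0.01, 0 with either covariate, and 1 to 2 with each library left out. The count over all genes, 3488, was 1698 without the filter, 1454 at an adjusted p under 0.01, 1579 without WT1 and KO1, 925 in the 5 libraries high in Gm10800, 8 with the neutrophil and 0 with the interferon covariate, and 2358 to 3606 with each library left out. The cause of these moves was not tested, apart from the fewer libraries, the stricter threshold and the larger number of genes adjusted over that the alternatives themselves bring.

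The deviations of same-numbered libraries from their group means correlated at -0.213, -0.389, 0.329 and 0.00756. Those of libraries with unlike numbers correlated at -0.474 to 0.532. KO3 and WT3 also share the lowest depth and the most Gm10800. The correlations therefore cannot decide whether libraries were paired by replicate number. With that number as a replicate block, 5 of the 10 genes and 17 other pathway genes rose, 1 other pathway gene fell and 2838 genes changed in all. By voom on recovered reads 7 of the 10 genes rose, where 2359 of the 12524 genes tested rose, and 4698 genes were called in all. Depth limits Il18 in WT, Nlrp1b, and every gene in KO3 and WT3.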

Other observations

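Nkg7, a granule membrane gene of cytotoxic lymphocytes that was the tested member of the T and NK cell list, stood at 144, 94.5, 109 and 223 FPKM in KO1 to KO4, against 0.652, 9.14, 0.578 and 7.44 FPKM in WT1 to WT4. The defining T cell genes of the list were low in the same libraries, with Cd3e at 0.178 to 3.01 FPKM in Nynrin-KO and 0.0237 to 0.799 FPKM in WT, and the NK cell gene Ncr1 at 0.494 to 5.13 FPKM in Nynrin-KO and 0.0404 to 2.05 FPKM in WT. Of the same list, Cd4 and Klrb1c were also low but higher in every Nynrin-KO library than in any WT library. Cd4 was at 0.265 to 1.32 FPKM in Nynrin-KO and 0 to 0.112 FPKM in WT. Klrb1c was at 0.402 to 1.46 FPKM in Nynrin-KO and 0.023 to 0.3885 FPKM in WT. Cd3d, Cd3g and Cd8a overlapped between the groups, as did Cd3e and Ncr1. Nkg7, Cd3e and Ncr1 were chosen after their values were seen.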
